A study of Mus musculus with 28 samples.

Results

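Amacrine cells are the inhibitory interneurons of the inner retina, and 10 genes that mark them or their subtypes were followed here across the retinas of an optic nerve crush study. The genes were Gad1, Gad2, Slc32a1, Slc6a9, Chat, Th, Calb1, Calb2, Pax6 and Tfap2b. They were taken by symbol from the first column of the normalized count table, which held a row for all 10 among 35973 rows that name a gene. All 10 had a mean value of at least 10 and were among the 15773 genes tested.

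Most amacrine cells release either GABA or glycine onto bipolar cells, ganglion cells and other amacrine cells. GABAergic cells make their transmitter with the glutamate decarboxylases encoded by Gad1 and Gad2, glycinergic cells take glycine up through the transporter encoded by Slc6a9, and both kinds load vesicles with the transporter encoded by Slc32a1. Smaller subtypes add a further transmitter, such as acetylcholine in starburst cells, whose synthesis needs Chat, or dopamine, whose synthesis needs Th. The calcium-binding proteins calbindin (Calb1) and calretinin (Calb2) label subsets of these cells, but Calb1 is also made by horizontal cells and Calb2 by some ganglion cells. Pax6 and Tfap2b encode transcription factors of the amacrine lineage, and Pax6 is made by ganglion and horizontal cells and Müller glia as well.

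Polyadenylated RNA of whole mouse retina was sequenced in bulk. In every mouse the right optic nerve was crushed, an injury to the axons of retinal ganglion cells (ONC), and the left nerve was left intact (CTRL), so side and crush cannot be told apart. Mice were injected daily for 7 days with vehicle or with RGFP966 at 10 mg/kg, an inhibitor of the histone deacetylase HDAC3, and all retinas were taken 7 days after the crush. From 13 mice, both eyes of each, 26 libraries were used. RGFP966 had been given to 7 of the mice, 3 females and 4 males, and vehicle to 6, of which 2 were females and 4 males. No group was free of injections. Neither strain nor age of the mice is given in the labels. In bulk RNA, fewer cells of a type and less RNA per cell cannot be told apart.

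Normalized counts summed to between 17700000 and 21900000 per library. The retinal identity of the samples was plain from Sag, which encodes the arrestin of rods (82040 to 116537 normalized counts). A pair of libraries stood apart for the amacrine genes. The crushed retina of RGFP966 male C had the highest value of all 26 libraries for 6 of the 10 genes, and the uncrushed retina of vehicle male D had the lowest value for 6 of them. For the uncrushed retina of RGFP966 female A one label speaks of crush, against the title and the condition. The title was followed, and Calb2 results are given below with and without these libraries.

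In GENCODE vM21 (GRCm38, the mm10 build), 4 of the genes lie on chromosome 2: Gad2 at chr2:22622205-22693874, Gad1 at chr2:70553072-70602014, Pax6 at chr2:105668900-105697364 and Slc32a1 at chr2:158610767-158615748, all on the plus strand. Tfap2b lies at chr1:19208914-19238576, Calb1 at chr4:15881264-15908064 and Slc6a9 at chr4:117834506-117875198, also on the plus strand. Th at chr7:142892752-142931128, Calb2 at chr8:110137502-110168210 and Chat at chr14:32408203-32465989 are on the minus strand. Exons of Slc6a9 overlap exons of B4galt2 and Ccdc24 on the opposite strand, which had mean normalized counts of 1801 and 5512, and exons of Slc32a1 overlap an antisense transcript. The labels do not say whether strand was kept, so values of Slc6a9 and Slc32a1 may hold reads of those neighbours.

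RefSeq promoter sequences on GRCm38.p6, from 250 bases before to 50 bases after a start site, were found for 8 of the 10 genes, 11 promoters in all. Those of Gad1 and Gad2 are shown because these genes varied together across libraries, and that of Th because this gene had the lowest level and correlated little with the others. Capitals mark an AP-2 motif (GCCNNNGGC, the type of site bound by factors such as Tfap2b) or a full cyclic AMP response element (CRE, TGACGTCA), searched on both strands. They come from chr2:70561879-70562178 on the plus strand, chr2:22622077-22622376 on the plus strand and chr7:142899946-142900245 on the minus strand.
Gad1: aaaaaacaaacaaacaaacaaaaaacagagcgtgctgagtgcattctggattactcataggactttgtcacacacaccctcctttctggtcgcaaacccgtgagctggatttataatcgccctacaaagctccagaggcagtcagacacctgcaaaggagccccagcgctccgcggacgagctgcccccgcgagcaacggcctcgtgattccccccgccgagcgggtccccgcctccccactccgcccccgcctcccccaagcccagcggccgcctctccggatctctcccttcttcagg
Gad2: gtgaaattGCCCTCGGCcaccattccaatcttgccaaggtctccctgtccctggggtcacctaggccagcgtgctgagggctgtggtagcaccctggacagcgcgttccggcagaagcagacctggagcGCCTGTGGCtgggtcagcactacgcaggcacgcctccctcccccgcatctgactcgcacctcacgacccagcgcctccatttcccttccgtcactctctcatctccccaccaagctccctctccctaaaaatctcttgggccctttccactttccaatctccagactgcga
Th: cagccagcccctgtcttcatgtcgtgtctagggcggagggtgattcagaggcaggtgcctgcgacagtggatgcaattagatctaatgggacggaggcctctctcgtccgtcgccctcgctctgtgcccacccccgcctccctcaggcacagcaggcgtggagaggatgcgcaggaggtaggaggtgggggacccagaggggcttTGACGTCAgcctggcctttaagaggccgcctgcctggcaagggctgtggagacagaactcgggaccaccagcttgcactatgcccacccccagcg
The Gad2 promoter held the AP-2 motif at 2 places, the Gad1 promoter held neither motif, and the Th promoter held the CRE motif 45 bases before the start site. No match of one motif overlapped a match of the other. Of 32851 promoters of this length, 16.6% held the AP-2 motif and 1.79% the CRE motif, and each was found in 2 of the 11 promoters of the marker genes. These matches describe the letters only.

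Expression differed widely among the 10 genes. As normalized counts per kilobase of the longest annotated transcript, the mean over 26 libraries was 793 ± 96.7 (SD) for Pax6, 653 ± 386 for Calb2, 576 ± 112 for Slc6a9, 420 ± 202 for Gad1 and 299 ± 135 for Slc32a1. Tfap2b followed with 236 ± 76.5, Calb1 with 117 ± 45.1, Gad2 with 53.3 ± 28.3, Chat with 28.0 ± 16.3 and Th with 13.7 ± 4.92. On this per-kilobase scale no gene was separated from the next one in the order by more than the SDs of both. Scaling by all annotated exon bases instead placed Calb2 first (536) and Pax6 (300.2) behind Slc6a9 (390), while Calb1, Gad2, Chat and Th kept the last places in the same order. The transcription factors and the glycine transporter were the steadiest between libraries: the highest normalized count was 2.02 times the lowest for Pax6, 2.65 times for Slc6a9 and 3.30 times for Tfap2b, against 7.41 times for Calb2 and 6.77 times for Th.

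**Figure D1:**
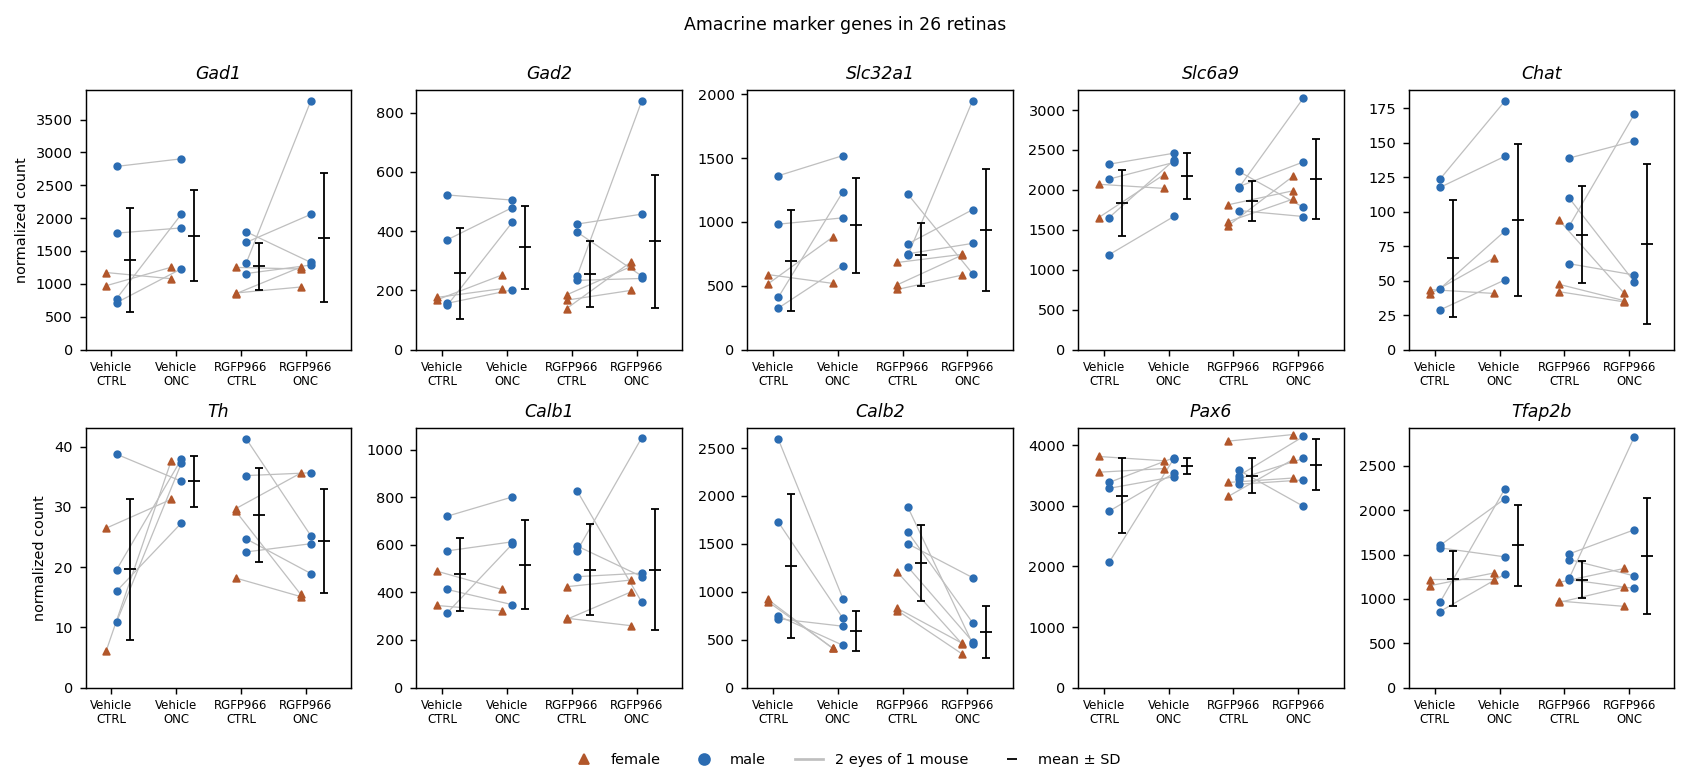
Normalized counts (y axis, from 0) of the 10 amacrine marker genes in the 4 groups (x axis); triangles are females, circles are males, grey lines join both eyes of a mouse, and bars are mean ± SD. Calb2 lies lower in the crushed eye of all 13 mice, and RGFP966 ONC male C stands above its group for Gad1 (3786), Gad2 (839) and Calb1 (1050).

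Crush was followed by a fall of 1 of the 10 genes, Calb2, which encodes calretinin. In vehicle mice its normalized count ran from 718 to 2593 in uncrushed retinas (median 908) and from 408 to 926 in crushed retinas (median 540). In RGFP966 mice it ran from 804 to 1884 uncrushed (median 1259) and from 350 to 1148 crushed (median 462). Ranges of crushed and uncrushed groups overlapped in both treatments, yet the crushed eye was the lower one in all 6 vehicle mice and all 7 RGFP966 mice. The smallest fall within a mouse was seen in vehicle male C, from 718 to 640.

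Group means of Calb2 went from 1267 ± 748 (SD, n = 6) to 591 ± 209 in vehicle mice and from 1300.1 ± 401 (n = 7) to 576 ± 271 in RGFP966 mice. On the log2(value + 1) scale this was a change of -0.99 ± 0.25 (SE; 95% interval -1.50 to -0.49; adjusted p = 0.013, limma with Benjamini-Hochberg adjustment over 15773 genes) in vehicle mice. In RGFP966 mice it was -1.22 ± 0.23 (-1.69 to -0.75; limma adjusted p = 0.00083), and averaged over both treatments -1.10 ± 0.17 (limma adjusted p = 2.4e-05). Of all genes tested, 5.34% passed an adjusted p of 0.05 with crush in vehicle mice, 4.67% in RGFP966 mice and 11.8% on average, so a count of 1 in 10 markers was near the background share. Without the sex term the vehicle call was lost (limma adjusted p = 0.053), as it was with only the vehicle groups fitted (0.061). In both sexes Calb2 was lower after crush: females had 804 to 1204 uncrushed and 350 to 462 crushed, with no overlap, and males 718 to 2593 and 440 to 1148, which overlapped.

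Leaving out the libraries that stood apart kept the Calb2 calls. The change in RGFP966 mice was -1.36 without the crushed retina of male C (limma adjusted p = 0.00014) and -1.16 without the uncrushed retina of female A (0.0029). The change in vehicle mice was -1.16 without the uncrushed retina of male D (limma adjusted p = 0.0031). Ganglion cell markers also fell with crush. Of 10 listed ones, including Rbpms, Pou4f2 and Nefl, 8 fell in vehicle mice and 9 in RGFP966 mice. Falls were called for 1.65% and 1.33% of all genes tested, in the same order. None of the 10 markers was at 0. Their summed normalized count was 7569 to 13859 in uncrushed and 2738 to 4524 in crushed retinas of vehicle mice, and 8434 to 12586 against 2656 to 4815 in RGFP966 mice. The part of ganglion cells in the fall of Calb2 was not tested.

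**Figure D2:**
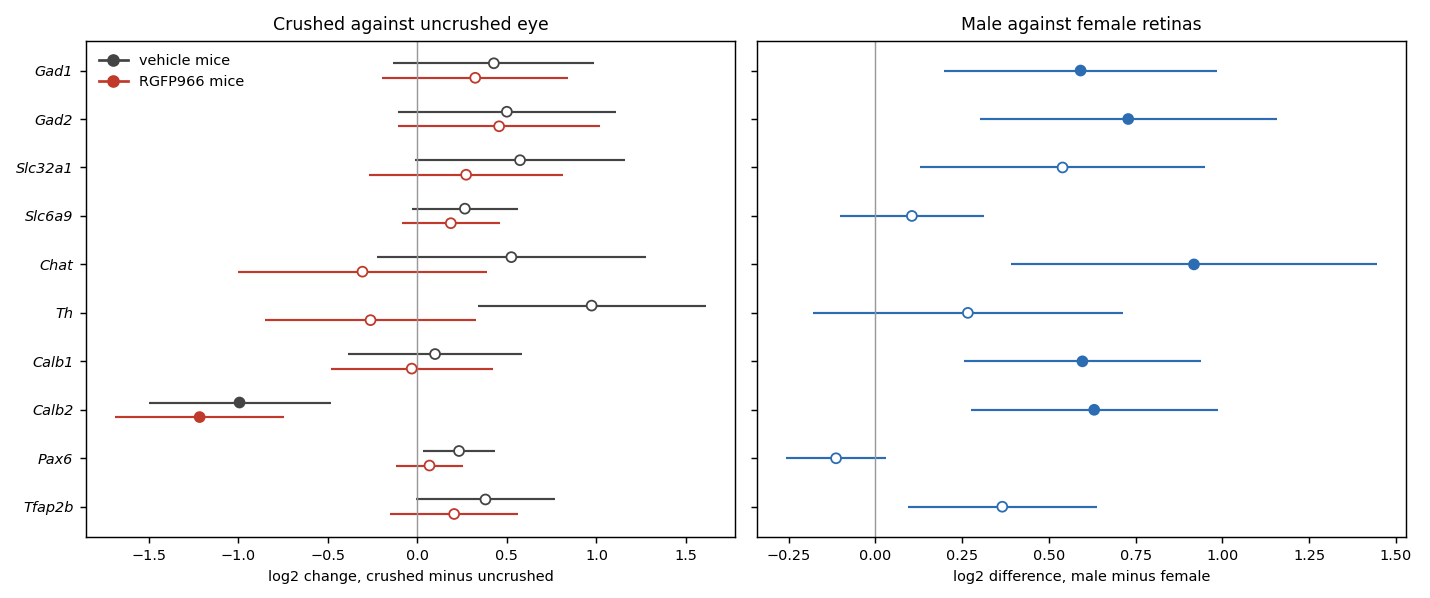
Left, log2 change of each gene from the uncrushed to the crushed eye in vehicle (grey) and RGFP966 mice (red); right, log2 difference of male minus female retinas. Points are limma estimates, bars are 95% intervals, and filled points have an adjusted p under 0.05: Calb2 with crush, and Gad1, Gad2, Chat, Calb1 and Calb2 between the sexes.

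The GABA genes did not pass the test with crush. Gad1 was 714 to 2787 in uncrushed and 1078 to 2902 in crushed retinas of vehicle mice, with medians of 1072 and 1551. In RGFP966 mice it was 848 to 1792 uncrushed (median 1250) and 951 to 3786 crushed (median 1286). Values overlapped in both treatments, and the crushed eye was the higher one in 10 of 13 mice. Averaged over treatments the log2 change was 0.37 ± 0.19 (SE, limma adjusted p = 0.22).

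Gad2 behaved alike in direction, with an average log2 change of 0.48 ± 0.20 (limma adjusted p = 0.14) and a higher value in the crushed eye of 11 of 13 mice. Its medians went from 172 to 340 in vehicle mice and from 233 to 281 in RGFP966 mice. Slc32a1, which fills vesicles with GABA or glycine, had medians of 551 and 957 in vehicle mice and of 737 and 746 in RGFP966 mice, and an average log2 change of 0.42 ± 0.19 (limma adjusted p = 0.18). None of these differences passed the threshold, and their 95% intervals reached from -0.01 to 0.76 for Gad1, from 0.06 to 0.89 for Gad2 and from 0.02 to 0.82 for Slc32a1.

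The glycine transporter gene Slc6a9 had medians of 1862 and 2265 before and after crush in vehicle mice and of 1814 and 1989 in RGFP966 mice. Its average log2 change was 0.23 ± 0.10 (limma adjusted p = 0.15). Tfap2b, an AP-2 transcription factor, had an average log2 change of 0.29 ± 0.13 (limma adjusted p = 0.16) and Pax6 one of 0.15 ± 0.07 (limma adjusted p = 0.17). The crushed eye was higher in 10 of 13 mice for Slc6a9, in 8 for Tfap2b and in 11 for Pax6. Pax6 was the least variable of the set, at 3483 to 3796 in the crushed retinas of vehicle mice.

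Calb1, the gene of the other calcium-binding protein, had an estimate near 0. It had medians of 450 and 507 in vehicle mice and of 466 and 452 in RGFP966 mice, and an average log2 change of 0.03 ± 0.16 (95% interval -0.30 to 0.37, limma adjusted p = 0.93). The crushed eye was higher in 7 mice and lower in 6. Among the 10 genes, 6 had an unadjusted limma p under 0.05 on average over treatments, namely Calb2, which fell, and Gad2, Slc32a1, Slc6a9, Pax6 and Tfap2b, with positive estimates. Of all 15773 genes tested, 3742 (23.7%) had such a p in this comparison. The median log2 change of the 10 genes was 0.40 in vehicle mice, 0.13 in RGFP966 mice and 0.26 on average, beside a median of -0.01 over all genes tested in each of these comparisons.

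Chat and Th, the genes of the cholinergic and dopaminergic subtypes, had estimates of opposite sign under the treatments. Chat was 28.7 to 124 uncrushed and 40.7 to 180 crushed in vehicle mice, and 42.0 to 139 uncrushed and 34.6 to 171 crushed in RGFP966 mice. Its log2 changes were 0.52 ± 0.37 and -0.31 ± 0.34 (limma adjusted p = 0.53 and 0.76). All 4 ranges overlapped, and the drug by crush interaction for Chat was -0.83 ± 0.50 (limma adjusted p = 1).

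Th, the rate-limiting enzyme of dopamine synthesis, was measured at 6.10 in female A, 26.5 in female C, 10.9 in male A, 38.7 in male B, 19.6 in male C and 16.0 in male D among uncrushed retinas of vehicle mice. Their crushed eyes, in the same order, gave 37.5, 31.2, 37.2, 34.2, 37.9 and 27.3. Crushed retinas were thus close together and above the uncrushed eye in 5 of 6 vehicle mice, male B being the exception, while the groups overlapped. In RGFP966 mice Th was 18.2 to 41.3 uncrushed (median 29.3) and 15.1 to 35.6 crushed (median 23.9).

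The log2 change of Th with crush was 0.97 ± 0.31 in vehicle mice (limma unadjusted p = 0.00409, adjusted p = 0.067) and -0.26 ± 0.29 in RGFP966 mice (adjusted p = 0.76). It passed the threshold in vehicle mice without the uncrushed retina of female C (adjusted p = 0.03) or of male B (adjusted p = 0.016). These held the highest uncrushed values of vehicle mice. Over all single libraries left out, the change was 0.72 to 1.19 and limma's adjusted p 0.016 to 0.19. The interaction of drug and crush was -1.23 ± 0.42 for Th (limma unadjusted p = 0.00695, adjusted p = 1), so the difference between the treatments did not pass. At these levels a normalized count corresponded to about 1 read (0.747 to 1.23 normalized counts a read), and Th rested on few reads per library. Of 4 tested companions in dopamine synthesis and transport, none passed with crush, and their median log2 changes were -0.04 in vehicle and -0.06 in RGFP966 mice.

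RGFP966 against vehicle gave no call. In limma, 0 of 15773 genes (0%) passed in crushed eyes, 0 (0%) in uncrushed eyes and 0 (0%) for the interaction, where 403, 782 and 327 genes had an unadjusted p under 0.05. Among the 10 markers an unadjusted p under 0.05 was reached by none in crushed eyes and by Th alone in uncrushed eyes and in the interaction. In uncrushed eyes Th had a median of 17.8 in vehicle and of 29.3 in RGFP966 mice, a log2 difference of 0.72 ± 0.30 (limma unadjusted p = 0.0239, adjusted p = 0.91). In crushed eyes the estimate was -0.52 ± 0.30 (adjusted p = 1).

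For the other genes the 95% intervals show the sizes of difference these data allow. For Calb2 the difference between RGFP966 and vehicle was -0.01 in crushed eyes (95% interval -0.50 to 0.48) and 0.21 in uncrushed eyes (-0.28 to 0.70). For Gad1 it was -0.03 (-0.57 to 0.51) and 0.07 (-0.47 to 0.61), and for Pax6 -0.01 (-0.21 to 0.19) and 0.15 (-0.04 to 0.35). Intervals were widest for Chat, at -1.03 to 0.42 in crushed and -0.20 to 1.25 in uncrushed eyes. The comparisons of crush in each treatment and of drug in each eye use the same 4 groups and are not independent.

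Within each library the calretinin gene was set against the others by ratios of normalized counts, chosen after the values were seen and given without a test. The ratio of Calb2 to Gad1 was 0.785 to 1.14 in the 13 uncrushed retinas and 0.303 to 0.390 in the 13 crushed retinas. These ranges were far apart, in contrast to the overlapping counts of Calb2 itself. The ratio also takes in Gad1, whose average log2 change with crush was 0.37 ± 0.19 (SE, limma adjusted p = 0.22). How often ratios of other genes separate the eyes was not examined. The ratio of Calb2 to Calb1 was 1.82 to 3.60 uncrushed and 0.999 to 1.45 crushed, again without overlap.

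The ratios were close to each other under both treatments. The mean ratio of Calb2 to Gad1 was 0.932 ± 0.0863 (SD) in uncrushed and 0.348 ± 0.0328 in crushed retinas of vehicle mice, and 1.02 ± 0.0756 and 0.351 ± 0.0266 in RGFP966 mice. RGFP966 ONC male C, with the highest Gad1 count of all libraries, had the lowest ratio (0.303), and vehicle CTRL male D, with the lowest Gad1 count, had 1.05. The ratio of Gad1 to Gad2 did not separate the eyes, at 3.85 to 6.77 uncrushed and 3.86 to 6.10 crushed.

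**Figure D3:**
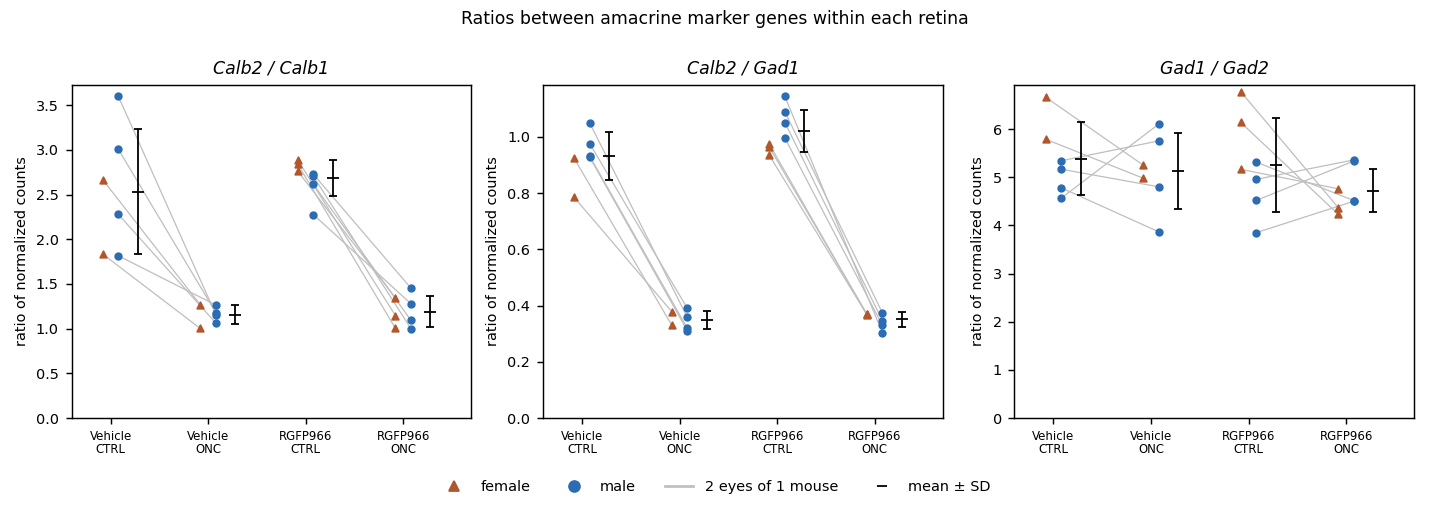
Ratios of normalized counts within each retina (y axes, from 0) for Calb2 to Calb1, Calb2 to Gad1 and Gad1 to Gad2 in the 4 groups (x axes); triangles are females, circles are males, grey lines join both eyes of a mouse, bars are mean ± SD. Both ratios with Calb2 drop in each of the 13 mice with no overlap between crushed and uncrushed retinas, whereas Gad1 to Gad2 overlaps throughout.

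After group and sex means were removed, the marker genes still varied together from library to library. The description uses Pearson's r over the log2 values of 26 libraries, which come in pairs from 13 mice and whose values share the library's dissection, depth and normalization, so no p is given. Gad1 and Calb2 had an r of 0.98, Gad1 and Slc32a1 of 0.96, and Gad1 and Gad2 of 0.93. Leaving Th and Pax6 aside, the 28 pairs had r from 0.61 to 0.98 (median 0.86), or from 0.53 to 0.96 without the 2 libraries farthest from the median of one gene of the pair. Thus GABAergic, glycinergic, cholinergic and calcium-binding markers were high or low in the same retinas.

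Pax6 and Th stood outside this pattern. The 9 pairs with Th had r up to 0.34 (median 0.22), and those with Pax6 up to 0.56 (median 0.37). Th rested on few reads per library, which limits any r with it, and the part of this in its low r was not tested. The retinas highest in the set, RGFP966 ONC male C and both eyes of vehicle male B, were so for Gad1 and for Slc32a1. Both eyes of a mouse did not always go together: Gad1 was 2787 and 2902 in the eyes of vehicle male B, but 1312 and 3786 in those of RGFP966 male C.

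**Figure D4:**
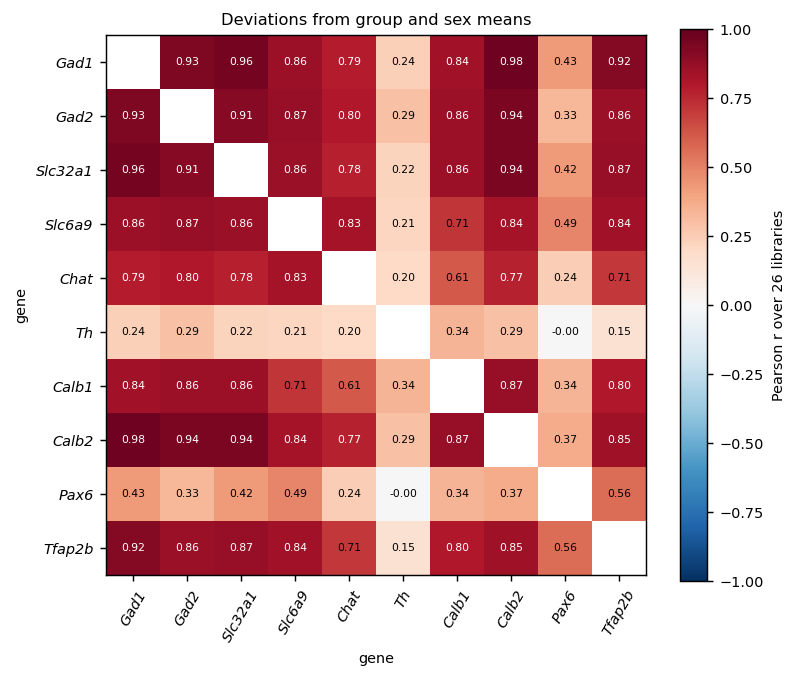
Pearson r between the 10 amacrine marker genes (both axes) over the deviations of 26 libraries from their group and sex means; colour and number give r. Gad1, Gad2, Slc32a1, Calb2 and Tfap2b form a block with r from 0.85 to 0.98, and the rows of Th and Pax6 are pale.

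The genes whose log2 values were most like those of the called markers over the 26 libraries are named as a description only. Here group and sex means were left in, unlike in the pairs above. Nearest to Calb2 were Cplx1, a regulator of vesicle release (r = 0.97), Sult4a1, a sulfotransferase of neurons (0.97), and Chrna6, a nicotinic receptor subunit (0.96). With group and sex means removed, r of these genes with Calb2 was 0.92, 0.91 and 0.91. Nearest to Gad1 were Syt4, a synaptotagmin (0.98), Gucy1b1, a subunit of soluble guanylyl cyclase (0.97), and Lrrtm2, a synaptic adhesion protein (0.97). Gad2 was nearest to Slc38a1, a glutamine transporter, Lrrtm2 and Neurod4 (r = 0.95 for each). Near to Calb1 were Eef1a2 and Zwint (0.94 and 0.93), and to Chat they were Slc7a14, Barhl2 and Rbfox1 (0.90, 0.88 and 0.88). Over all the neighbours named here, r with those means removed ran from 0.83 (Barhl2 with Chat) to 0.97 (Syt4 with Gad1).

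Of all genes tested, 5.67% were called higher in males and 10.9% passed in either direction. Among the 10 markers, 5 were higher in male than in female retinas. These were Gad2 (log2 difference 0.73 ± 0.21, limma adjusted p = 0.029), Chat (0.92 ± 0.26, adjusted p = 0.027), Calb1 (0.60 ± 0.17, adjusted p = 0.027), Calb2 (0.63 ± 0.17, adjusted p = 0.026) and Gad1 (0.59 ± 0.19, adjusted p = 0.046). The comparison set 16 libraries of 8 males against 10 of 5 females, with both eyes of a mouse counted as separate libraries. The median difference of the 10 genes was 0.57, beside -0.00434 over all genes tested.

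For Gad1, Chat and Gad2, the female medians were lower and the female retinas lay closer together than the male ones. Gad1 was 848 to 1254 in females (median 1125) and 714 to 3786 in males (median 1701). Chat was 34.6 to 93.9 in females (median 41.5) and 28.7 to 180 in males (median 99.8). Gad2 was 138 to 297 in females (median 192) and 150 to 839 in males (median 384). The ranges of the sexes overlapped for these 3 genes, the male range enclosing most or all of the female one. Pax6 and Th differed from this pattern: the Pax6 median was 3682 in females and 3464 in males, and Th was 6.10 to 37.5 in females and 10.9 to 41.3 in males.

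Of the other markers, Slc32a1 (0.54 ± 0.20, limma adjusted p = 0.072) and Tfap2b (0.37 ± 0.13, adjusted p = 0.068) did not pass, nor did Th (0.27 ± 0.22, adjusted p = 0.42), Slc6a9 (0.11 ± 0.10, adjusted p = 0.5) and Pax6 (-0.11 ± 0.07, adjusted p = 0.27). Of 10 listed ganglion cell markers, 3 were also higher in males, Slc17a6 (0.94), Nefl (0.44) and Nefm (0.77), beside 5.67% of all genes tested. The summed normalized count of the 10 was 2656 to 9485 in females and 2755 to 13859 in males. These ranges pool crushed and uncrushed eyes, between which the sum itself differed. No rod marker passed. The part of ganglion cells in these differences was not tested.

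Single libraries decided several of the calls between the sexes. The count of 5 fell to 3 without RGFP966 ONC female A, where Gad1 and Chat were lost, and without RGFP966 CTRL female B or RGFP966 CTRL male B, where Gad1 and Gad2 were lost. It fell to 1, Calb2, without vehicle ONC female A, where limma's adjusted p was 0.054 for Gad2, 0.054 for Chat and 0.053 for Calb1. Gad1 lost its call without the filter on the mean, with quantile normalization and without any 1 of 18 libraries. The other 8 were the uncrushed retinas of RGFP966 female A, male A and male C and of vehicle males C and D, and the crushed retinas of RGFP966 males A and B and of vehicle male D.

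Some libraries acted the other way. Without RGFP966 ONC male B, vehicle ONC male D, or the uncrushed retina of vehicle male C or male D, Slc32a1 and Tfap2b passed as well, and Tfap2b also passed without RGFP966 ONC male A. Over all genes the count between the sexes, 1725, ranged from 830 without RGFP966 ONC female A to 2984 without vehicle ONC male D. Calb2 kept its higher level in males under every alternative tried, with limma adjusted p from 0.0094 to 0.047.

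Other amacrine genes were described from companion lists of 42 genes. With crush averaged over treatments, Crh, Megf10 and Slc6a11 were among those that passed. Crh, which encodes corticotropin-releasing hormone, made by an amacrine subtype, rose by 2.04 ± 0.33 on the log2 scale (limma adjusted p = 6.2e-05), from 2.45 to 11.6 uncrushed to 10.5 to 37.9 crushed in vehicle mice, and from 0 to 13.7 uncrushed to 11.9 to 34.9 crushed in RGFP966 mice. These are low levels, and the ranges overlapped. With a pseudocount of 10 in place of 1, the change of Crh was 1.05 on average.

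Megf10, a receptor of starburst and horizontal cells, rose by 0.31 ± 0.08 (limma adjusted p = 0.01), and Slc6a11, a GABA transporter that glia also carry, by 0.42 ± 0.14 (limma adjusted p = 0.042). The call of Slc6a11 held under 16 of 34 alternatives. It was lost without the filter on the mean, without the sex term and without any 1 of 16 libraries. It was kept without vehicle CTRL female A, male A or male B, or vehicle ONC female A or male D. The same held without RGFP966 CTRL male B or male D, or RGFP966 ONC female B, male A or male B.

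The remaining companions were mostly without calls on average over treatments. None of 4 tested dopamine genes or 8 tested transcription factors passed. Of 5 GABA uptake genes, 6 cholinergic genes and 9 neuropeptide and other transmitter genes, 1 passed in each list. In vehicle mice Megf10 passed (0.42, limma adjusted p = 0.033), a call lost without vehicle CTRL female A, male A, male C or male D or vehicle ONC female C, male B or male C, and in RGFP966 mice Crh did (2.57, adjusted p = 0.00038; 1.26 with a pseudocount of 10). Between the sexes Aldh5a1, an enzyme of GABA breakdown (log2 difference 0.35), Gjd2, a gap junction protein of AII amacrine cells (0.20), and the transcription factors Barhl2 (0.38) and Neurod4 (0.61) were higher in males. Gjd2 and Barhl2 lost their calls without the same 18 libraries as Gad1, and Neurod4 without any 1 of 6: RGFP966 CTRL female B, female C or male B, RGFP966 ONC female C, vehicle CTRL female A or vehicle ONC female A. Without the filter on the mean Gjd2, Barhl2 and Neurod4 lost their calls as well, and Gjd2 also did with quantile normalization.

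Cells that share single markers with amacrine cells gave separate readings. Of 6 symbols listed for horizontal cells, 4 were present and tested. None of these 4 and none of 6 bipolar markers passed with crush. Of 5 Müller glia markers, Glul fell (-0.40) and Slc1a3 rose (0.43) on average over treatments, log2 changes that passed under 34 of 34 alternatives. Rlbp1 (-0.17) and Kcnj10 (0.39) also passed. The call of Rlbp1 held under 17 of 34 alternatives; it was lost with both eyes of a mouse paired (limma adjusted p = 0.068), with equal library totals, with quantile normalization, without the filter on the mean and without any 1 of 13 libraries, namely RGFP966 CTRL female B, female C or male C, RGFP966 ONC female A, male B or male D, vehicle CTRL female C, male B or male D, or vehicle ONC female A, female C, male C or male D. That of Kcnj10 was lost without vehicle CTRL male C or male D or vehicle ONC female C or male B. Among the rod markers Nrl, Pde6b and Gnat1 fell by 0.34, 0.26 and 0.28 on the log2 scale on average. Quantile normalization ended the calls of Gnat1 and Pde6b, and that of Gnat1 was also lost without the filter on the mean. The part of rods in the marker values was not tested.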

How the data were processed

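Both eyes of 14 mice were labelled, 28 samples. The deposited values are a signal, gene counts that the authors normalized with DESeq2 after assigning reads to mm10 transcripts with kallisto 0.46.1, per the submitters' processing notes. The 28 columns held 1 repeated name, so 2 columns were not used, and 26 rows whose symbols had become dates (0.115% of the total) were left out. Low values fell within 0.05 of whole reads in 37.7 to 64.4% of cases up to 20 reads, so reads were not recovered and no count test was run. Estimated depth was 16000000 to 24700000 reads per library, and the files give no counting intervals.

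Values were taken as log2(value + 1), which understates fold changes of low genes, for 15773 genes with a mean of at least 10. limma 3.58.1 (R 4.3.3) with a trended prior fitted the 4 groups and sex to all 26 libraries. Tests were two-sided, with Benjamini-Hochberg adjustment over all genes tested and a threshold of 0.05. Errors of log2 values are SE, those of levels SD. Alternatives changed the pseudocount (0.5, 10), the filter (none, 50), the scaling, the sex term, the samples fitted and the pairing, and left out each library. The scripts were tested on simulated data.

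Eyes were paired by the treatment, sex and letter in their titles, taken to mark 1 animal. Deviations of the 2 eyes from their group means correlated above 0.1 in 4 of 13 mice (range -0.62 to 0.53, median 0.01). With the mouse as a fixed block the counts of members called with crush (1, 1 and 1) and for the interaction (0) were unchanged. The drug and sex comparisons lie between mice, so there the mouse was a random effect, with an estimated correlation of -0.029. Their counts (0, 0 and 5) were unchanged too, but that fit cannot show whether calls hold with each mouse counted once.

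The members and gene lists were chosen with earlier results of these data known. All 10 members were named in every comparison, with up to 3 called genes of each companion list and the 3 genes most correlated with each called member. Ganglion, rod and glial genes are named for context. Some genes that this rule names are not reported here. Lists not described in the text are lens markers (3 genes) and red blood cell markers (3 genes), of which none passed in any comparison.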

Additional observations from a re-analysis of the deposited data

Results flagged for a closer look

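In the crushed retinas of RGFP966 mice, male C lay far from the other 6 libraries for 5 of the 10 genes. It had normalized counts of 3786 for Gad1 (next highest 2057), 839 for Gad2 (457), 1950.3 for Slc32a1 (1096), 1050 for Calb1 (481) and 1148 for Calb2 (677). The gap to the nearest library, divided by the range of the group, was 0.61, 0.60, 0.63, 0.72 and 0.59, above Dixon's critical value at 95% for 7 samples. In all, 40 groups of values were tested, of which chance flags about 1 in 20, and the 5 flags come from 1 library, so they are not independent of each other.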

How the results depend on the processing

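Of 2403 alternative values for the 70 combinations of gene and comparison, 2297 kept direction and call, 28 lost a call, 13 gained one and 65 changed sign, none of the latter for a called value. The fall of Calb2 held in RGFP966 mice under 35 of 35 alternatives and in vehicle mice under 33 of 35. In vehicle mice the count of markers called with crush, 1, became 2 with equal library totals, where Th also passed, and 0 without the sex term and 0 with only the 2 groups compared. It was 1 to 2 with 1 library left out. Averaged over treatments the count, 1, became 2 with equal totals, where Pax6 also passed (0.24, adjusted p = 0.042). Between the sexes the count, 5, was 1 to 7 with 1 library left out. Equal totals moved the median log2 change of all genes with crush in vehicle mice from -0.01 to 0.10 and the share of calls that were rises from 69.1 to 91.0%, in RGFP966 mice from 71.5 to 85.4%, on average from 57.6 to 86.2% and, for higher in males, from 51.9 to 73.4%. Relative to that median, Th was at 0.98 before and after. Fitting only the vehicle groups gave 79.4% rises. Without a filter on the mean, 1010 genes differed between the sexes in place of 1725.

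Signs changed for Calb1 with crush in RGFP966 mice under equal totals (0.042), for Chat with crush on average under quantile normalization (-0.00797) and for Pax6 with RGFP966 in crushed eyes without the sex term (0.000293). Leaving out 1 library also turned signs of values near 0; the cause was not tested. With RGFP966 in crushed eyes the log2 differences were then -0.22 to 0.095 for Gad1, -0.21 to 0.097 for Slc32a1, -0.22 to 0.059 for Calb1, -0.16 to 0.088 for Calb2, -0.052 to 0.033 for Pax6, -0.13 to 0.039 for Slc6a9 and -0.10 to 0.22 for Gad2. In uncrushed eyes they were -0.064 to 0.20 for Calb1, -0.12 to 0.27 for Gad1, -0.033 to 0.32 for Gad2, -0.074 to 0.11 for Tfap2b and -0.075 to 0.12 for Slc6a9. For the interaction they were -0.24 to 0.13 for Gad2, -0.31 to 0.091 for Gad1, -0.29 to 0.020 for Calb1 and -0.17 to 0.050 for Slc6a9. With crush they were -0.049 to 0.10 for Calb1 and -0.020 to 0.21 for Chat on average, and for Calb1 -0.20 to 0.071 in RGFP966 and -0.051 to 0.24 in vehicle mice.

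A fixed block per mouse, both eyes paired, changed no call of the 10 genes with crush or in the interaction. Counts were 1 in vehicle mice, 1 in RGFP966 mice, 1 on average and 0 for the interaction. For the drug and for sex the mouse was a random effect instead, with an estimated correlation of -0.029. Counts stayed at 0 for the drug in either eye and 5 between the sexes, where 1961 of all genes passed. A correlation below 0 does not widen errors between mice, so that fit cannot show whether the 5 calls hold with each mouse counted once. Companion genes were rerun under the same alternatives, a choice made after seeing the data; among them Gnat1 changed sign with crush on average under quantile normalization (0.046). The block also ended the calls of the companion genes Rlbp1 with crush on average (limma adjusted p = 0.068) and Nrl with crush in vehicle mice (0.058) and in RGFP966 mice (0.069). Th has no value under a mean of at least 50. Low read numbers limit the precision of Th and Crh.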
